A study of Mus musculus with 8 samples.

Results

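The genes described here are 42 genes of amino acid supply and tRNA charging, out of 18125 genes listed in 8 mouse macrophage RNA sequencing libraries. They were taken by symbol from a given list of known targets of the transcription factor ATF4 and of cytosolic aminoacyl-tRNA synthetases, and all 42 were found. By role they are 9 genes of amino acid and one-carbon synthesis, 5 amino acid transporters, 11 genes of stress and regulation, and 17 synthetases. The libraries come from C57BL/6 mice, either wild type (WT) or Slc6a8-/y. The latter, called KO here, are males without the X-linked creatine transporter. Peritoneal macrophages, collected 3 to 4 days after 1 ml of 4% thioglycollate, stayed untreated or received IFN-gamma (12 hours, 10 ng/mL). Macrophages differentiated from bone marrow over 5 days in 10% M-CSF stayed untreated or received IL-4 (6 hours, 10 ng/mL). There is 1 library for each of the 8 resulting groups. The labels used here give neither the animals' ages nor whether libraries of a genotype share an animal, and do not describe the deleted region of Slc6a8.

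ATF4 is a leucine zipper transcription factor whose mRNA is translated preferentially when eIF2 alpha is phosphorylated, as happens when amino acids run short, when unfolded protein builds up in the endoplasmic reticulum, or when double-stranded RNA is sensed. This integrated stress response raises genes that make, import and charge amino acids, together with its own feedback regulators. Cytosolic synthetases join each amino acid to its tRNA, and the tryptophanyl enzyme encoded by Wars is a known interferon-induced gene in macrophages.

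Many ATF4 targets carry a composite element for a heterodimer of a C/EBP protein and ATF4, here searched as TGATGNAA on both strands of the RefSeq promoter window, from 250 bases before the start of the gene to 50 after it (GRCm38.p6). A window was held for 31 of the 42 genes, and 12 of these 31 (38.7%) contained the letters, against 4.51% of all 27025 genes with a window. The 12 genes were Asns, Pycr1, Slc1a4, Trib3, Chac1, Nupr1, Vldlr, Aars, Gars, Iars, Tars and Yars. In the 250 bases before the start alone, 8 of the 31 genes (25.8%) matched, against 3.91% of all genes. A match describes letters in a window, not a site shown to be bound. Genes such as Psat1, Phgdh and Kars rose with IFN-gamma although their windows lacked the letters. Whether the letters go with the response was not tested. Vldlr (not called with IFN-gamma) and Pycr1 (not tested there) matched before the start and are not shown. The stretches below hold the matched letters upstream of the 6 other genes, which rose with IFN-gamma. Each is read 5′ to 3′ on the strand of its gene, with the 8 matched letters in capitals. Asns is at chr6:7693210-7693256 (minus strand), Chac1 at chr2:119351025-119351080 (plus), Nupr1 at chr7:126625549-126625604 (minus), Aars at chr8:111033706-111033761 (plus), Gars at chr6:55037947-55038000 (plus) and Tars at chr15:11399659-11399697 (minus).
Asns: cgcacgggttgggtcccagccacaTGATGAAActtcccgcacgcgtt
Chac1: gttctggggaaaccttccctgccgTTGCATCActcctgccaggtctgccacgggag
Nupr1: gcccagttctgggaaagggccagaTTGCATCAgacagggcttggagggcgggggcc
Aars: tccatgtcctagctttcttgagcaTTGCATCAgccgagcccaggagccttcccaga
Gars: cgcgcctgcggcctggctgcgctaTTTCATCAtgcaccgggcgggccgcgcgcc
Tars: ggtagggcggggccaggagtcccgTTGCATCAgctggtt
Asns carries the forward form of the letters, from 23 to 16 bases before its start, and the other 5 carry the reverse complement. No window was held for Wars, Slc7a5, Slc1a5, Slc38a1, Eif4ebp1, Cars, Hars, Lars, Nars, Rars or Vars.

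Levels are in FPKM, fragments scaled to transcript length and to library total, which allows genes of different length to be set side by side. The peritoneal libraries held 10812678 to 11065427 expected counts and the bone marrow-derived ones 20553654 to 21221526, and a gene at 1 FPKM had a median of 28.0 to 61.5 counts. Slc6a8 was at 39.52 to 163.54 FPKM in the 4 WT libraries and at 0.18 to 1.71 FPKM in the 4 KO libraries. All 7 macrophage markers were detected in every library, with summed levels of 6072.23 to 10095.76 FPKM in peritoneal and 11423.25 to 14040.6 FPKM in bone marrow-derived macrophages. Of the 5 markers of T and natural killer cells, Cd3g and Ncr1 were at 0 in all 8 libraries. Because these are bulk cultures, fewer cells of a type and less RNA per cell cannot be told apart. With 1 library per group, no level carries an error between cultures. The log2 changes, SEs and Benjamini-Hochberg adjusted p-values below come from edgeR fits in each cell type in which genotype and cytokine act additively, so that 2 libraries stand against 2. The error is what such a fit leaves unexplained. It holds any difference between WT and KO cells in the cytokine response, together with noise that may be technical. Genes are said to rise or fall where the adjusted p over all genes tested was under 0.05.

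Slc3a2 stood highest of the 42 genes in untreated cells of both types. This heavy chain, shared by several amino acid exchangers, had a mean of 138.445 FPKM over the untreated WT and KO peritoneal libraries and 136.475 FPKM over the untreated bone marrow-derived ones, with overlapping values. Atf4 itself was at 133.26 (WT) and 120.85 FPKM (KO) in untreated peritoneal macrophages and at 76.83 and 69.34 FPKM in untreated bone marrow-derived macrophages, lower in both of the latter. Among synthetases Nars, for asparagine, stood highest in both cell types, with means of 57.545 and 80.48 FPKM. The lowest synthetase level in each cell type was 7.97 FPKM (Lars, untreated WT peritoneal) and 8.27 FPKM (Yars, untreated KO bone marrow-derived), so that all 17 synthetases were above 1 FPKM in every library. At the other end Pycr1, Vldlr and Stc2 stayed under 1 FPKM in all 8 libraries.
The largest ratios between the cell types were those of Slc1a4 and Ddit4. Slc1a4, a transporter of alanine, serine and cysteine, was at 0.21 and 0.14 FPKM in the untreated WT and KO peritoneal libraries and at 2.34 and 1.70 FPKM in the bone marrow-derived ones, a ratio of means of 11.54. Ddit4, an inhibitor of mTORC1 also known as REDD1, was at 0.72 and 0.71 FPKM against 6.01 and 3.83 FPKM, a ratio of 6.88. Asns and Nupr1 were also higher in both untreated bone marrow-derived libraries, with ratios of 2.12 and 2.59. Cell type and the set of libraries cannot be told apart, so these values have no test.

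**Figure D1:**
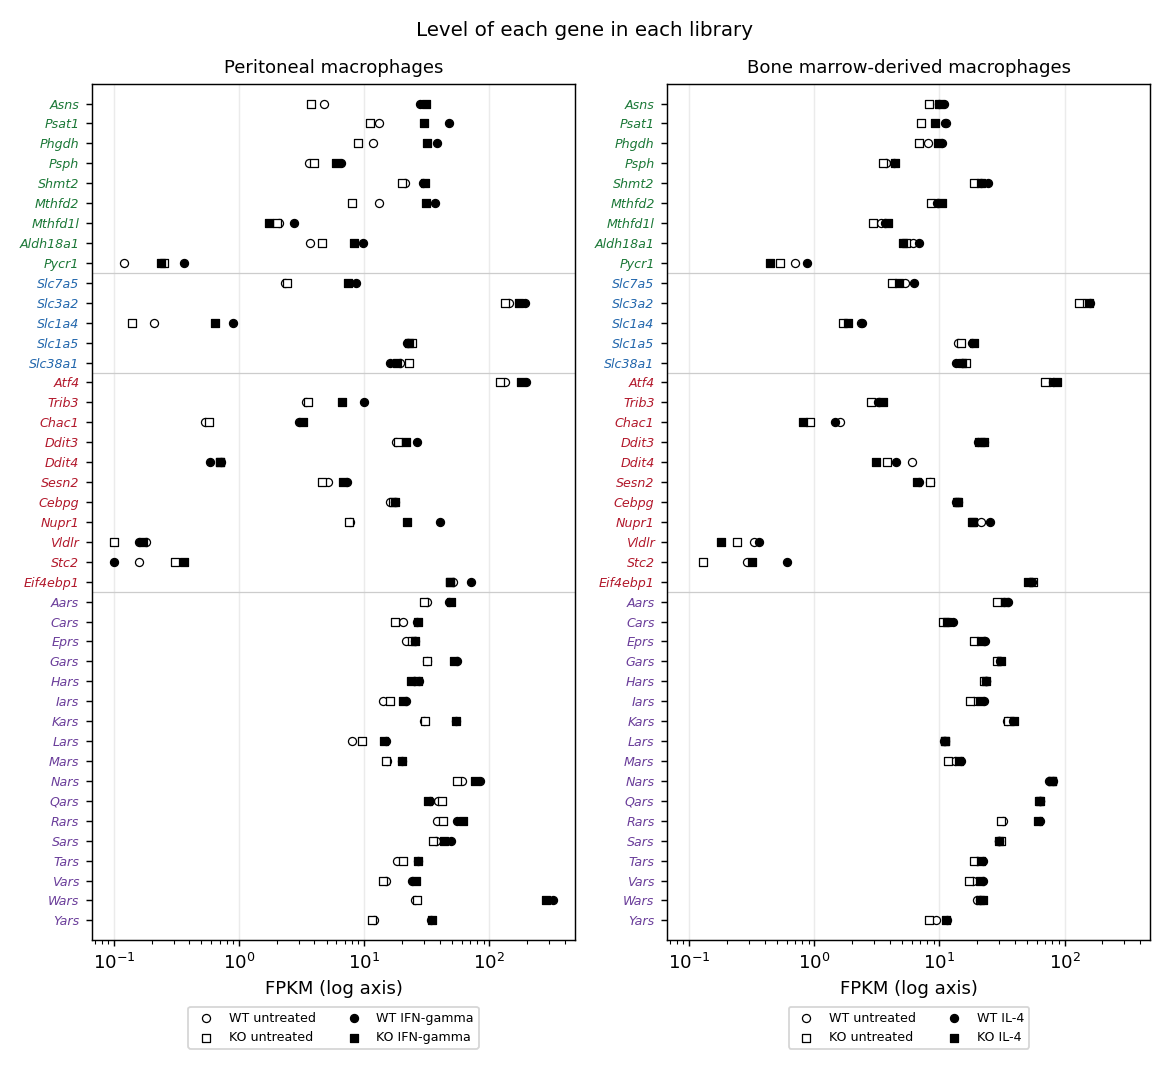
FPKM (log axis) of the 42 genes in the 4 peritoneal libraries (left) and the 4 bone marrow-derived libraries (right), with circles for WT, squares for KO, open symbols for untreated and filled symbols for cytokine-treated cells; gene names are coloured by role. In peritoneal macrophages the filled symbols lie to the right of the open ones for most genes, farthest for Wars (25.30 and 26.23 FPKM untreated, 324.18 and 284.66 FPKM with IFN-gamma).

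IFN-gamma raised most of these genes in peritoneal macrophages. Of the 40 genes that passed the filter on low counts, 30 rose and none fell, while 17.2% of all 12052 genes tested rose and 14.9% fell. Slc1a4 and Chac1, with 6 to 10 counts in the untreated libraries, passed this filter only with their IFN-gamma libraries. Both are counted among the 30. The median change over the 40 was 0.63 on the log2 scale, against -0.01 over all genes tested. Rises were called for 7 of 8 synthesis genes, 3 of 5 transporters, 6 of 10 stress genes and 14 of 17 synthetases. DESeq2 with the same design called 24 of the 30, without Psph, Slc1a4, Ddit3, Sesn2, Mars and Sars, and none that fell.
Library by library, 37 of the 42 genes averaged 1 FPKM or more over the 4 peritoneal libraries, treated ones included. Chac1, with an untreated mean of 0.555 FPKM, passed only through its IFN-gamma libraries and is counted among the higher genes that follow. Of the 37 genes, 11 were at least 2-fold higher with IFN-gamma in WT and 9 in KO cells on the log2(FPKM + 1) scale (backgrounds 5.95% and 7.27%). Both IFN-gamma libraries were above both untreated libraries for 31 of the 37 (background 26.6%). They were below for 2, Slc38a1 and Qars (background 40.1%). Markers of other cells also moved with the treatment. The summed level of the 5 erythroid and megakaryocyte markers was 53.39 and 69.88 FPKM in the untreated WT and KO libraries and 77.05 and 98.38 FPKM with IFN-gamma, 3 of the 5 being above 1 FPKM in each. The 6 fibroblast and mesothelial markers summed to 125.3 and 114.14 FPKM untreated and to 101.3 and 79.1 FPKM treated, 5 of the 6 being above 1 FPKM. The 5 neutrophil markers summed to 3.52 and 4.56 FPKM and then to 9.68 and 6.07 FPKM, mostly from S100a8, with Ly6g at 0 in 3 of the 4 libraries and Camp in all. The 5 T and natural killer cell markers summed to 0.40 and 0.85 FPKM and then to 1.62 and 3.27 FPKM, mostly from Cd3d, which was at 1.48 and 3.20 FPKM in the treated libraries. The 7 macrophage markers summed to 10095.76 and 8398.92 FPKM untreated and to 7425.68 and 6072.23 FPKM with IFN-gamma. Most of each sum came from the highest marker, at 7310.65 and 5529.22 FPKM and then at 5384.67 and 4277.32 FPKM. The median marker was at 66.35 and 66.48 FPKM and then at 62.34 and 65.4 FPKM. The lowest value among the 7 was 3.95 and 1.94 FPKM untreated and 44.66 and 25.22 FPKM treated. The part of these shifts in the results was not tested.

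Among synthesis genes, Asns, asparagine synthetase, changed most. It was at 4.81 FPKM in untreated WT and 3.76 FPKM in untreated KO cells, and at 27.87 and 31.11 FPKM with IFN-gamma, a log2 change of 2.88 (SE 0.17, adjusted p = 0.000154). The serine pathway rose at all 3 of its steps. Phgdh, its first enzyme, was at 11.84 (WT) and 8.92 FPKM (KO) untreated and at 38.36 and 31.48 FPKM with IFN-gamma (log2 1.85, SE 0.12, adjusted p = 0.000187). Psat1, the transaminase that follows, was at 13.07 and 11.17 FPKM and then at 47.54 and 30.03 FPKM (log2 1.74, SE 0.13, adjusted p = 0.000331). Psph, the phosphatase of the last step, moved less, from 3.65 and 3.97 to 6.50 and 5.90 FPKM (log2 0.80, SE 0.18, adjusted p = 0.0202). Psph overlaps Cct6a in the annotation, and no strand setting is stated. Whether reads of one were assigned to the other was not tested.
In the mitochondrial folate pathway, Mthfd2 was at 13.23 and 8.05 FPKM in untreated WT and KO cells and at 37.09 and 31.17 FPKM with IFN-gamma (log2 1.80, SE 0.15). Shmt2, which passes the one-carbon unit of serine to folate, rose less, from 21.21 and 20.05 to 29.54 and 30.73 FPKM (log2 0.64, SE 0.11). Mthfd1l, which releases formate in the mitochondrion, was not called: it was at 2.08 and 2.02 FPKM untreated and at 2.74 (WT) and 1.74 FPKM (KO) with IFN-gamma (adjusted p = 0.471). Aldh18a1, the first enzyme of proline synthesis from glutamate, rose from 3.68 and 4.59 to 9.74 and 8.25 FPKM (log2 1.21, SE 0.16). Pycr1, the last enzyme of that route, was at 0.12 to 0.36 FPKM in the 4 peritoneal libraries and was not tested there.

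The transporters split. Slc7a5, the light chain of the large neutral amino acid exchanger LAT1, was at 2.35 and 2.43 FPKM in untreated WT and KO cells and at 8.64 and 7.47 FPKM with IFN-gamma (log2 1.84, SE 0.14, adjusted p = 0.000327). Its heavy chain Slc3a2 started far higher and rose from 144.48 and 132.41 to 193.03 and 171.88 FPKM (log2 0.49, SE 0.09, adjusted p = 0.00987). Slc1a4 rose from 0.21 and 0.14 to 0.89 and 0.64 FPKM (log2 2.21, SE 0.35, adjusted p = 0.00565), on 6 to 39 counts per library. Slc1a5, the glutamine transporter ASCT2, was at 22.28 and 24.25 FPKM untreated and 21.78 and 22.73 FPKM treated (log2 0.03, adjusted p = 0.83). Slc38a1, another glutamine transporter, was at 19.19 and 22.94 FPKM untreated and 16.22 and 18.24 FPKM treated (log2 -0.19, adjusted p = 0.171). Neither glutamine carrier was called, and for Slc1a5 the fitted estimate and the FPKM values differed in sign.

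Among stress genes, Atf4 was at 133.26 and 120.85 FPKM in untreated WT and KO cells and at 197.15 and 178.94 FPKM with IFN-gamma (log2 0.69, SE 0.09, adjusted p = 0.00323). Its mRNA is only part of its control, since the protein is set mainly by translation, which was not measured. Chac1, which degrades glutathione, rose from 0.53 and 0.58 to 3.04 and 3.24 FPKM (log2 2.58, SE 0.31, adjusted p = 0.00186), on 9 to 56 counts per library. Nupr1, a small stress-induced chromatin protein, rose from 7.70 and 7.61 to 39.96 FPKM in WT cells and 22.14 FPKM in the KO ones (log2 2.07, SE 0.22, adjusted p = 0.00128). Trib3, a pseudokinase that feeds back on ATF4, rose from 3.43 and 3.57 to 9.88 (WT) and 6.62 FPKM (KO) (log2 1.31, SE 0.19, adjusted p = 0.00391). For Nupr1 and Trib3 the KO library with IFN-gamma lay between the untreated libraries and the WT library with IFN-gamma.
Sesn2, an inhibitor of mTORC1 that senses leucine, rose from 5.10 and 4.63 to 7.34 and 6.71 FPKM (log2 0.63, SE 0.13). Ddit3, the transcription factor CHOP, was called just under the threshold: it went from 17.83 and 18.76 to 26.29 and 21.47 FPKM (log2 0.48, adjusted p = 0.0497), and limma on log2(FPKM + 1) gave an adjusted p of 0.0839. Ddit3 overlaps Mars and Mbd6. Ddit4 was at 0.72 (WT) and 0.71 FPKM (KO) untreated and at 0.59 and 0.71 FPKM with IFN-gamma, on 11 to 13 counts per library, and was not called. Cebpg, which pairs with ATF4, was at 15.94 to 17.73 FPKM in the 4 peritoneal libraries and was not called either. Eif4ebp1, the repressor of cap-dependent translation 4E-BP1, was at 71.49 FPKM in WT cells with IFN-gamma and at 48.15 to 51.50 FPKM in the other 3 libraries (adjusted p = 0.113). Vldlr, a lipoprotein receptor, was at 0.10 to 0.18 FPKM and was not called, and Stc2, a secreted glycoprotein, was at 0.10 to 0.36 FPKM and was not tested.

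Of the synthetases, Wars stood apart. The tryptophanyl-tRNA synthetase gene was at 25.30 and 26.23 FPKM in untreated WT and KO cells and at 324.18 and 284.66 FPKM with IFN-gamma (log2 3.63, SE 0.11, adjusted p = 1.8e-05). The 17 synthetases together summed to 443.27 (WT) and 447.41 FPKM (KO) untreated and to 923.58 and 871.43 FPKM with IFN-gamma, so that Wars alone made up over 280 FPKM of the treated sums. Yars, for tyrosine, was next, from 11.92 and 11.50 to 33.97 and 34.52 FPKM (log2 1.64, SE 0.11, adjusted p = 0.000202).
The other 12 synthetases that rose changed by less than 1 on the log2 scale. Kars, for lysine, went from 29.98 and 30.66 to 54.20 and 53.65 FPKM (log2 0.93). Vars, for valine, went from 14.91 and 14.24 to 24.25 and 26.11 FPKM (log2 0.88), and Gars, for glycine, from 31.71 and 31.49 to 55.38 and 51.74 FPKM (log2 0.86). Lars, for leucine, went from 7.97 and 9.52 to 14.81 and 14.34 FPKM (log2 0.84), and Aars, for alanine, from 31.67 and 29.77 to 47.90 and 49.38 FPKM (log2 0.76). In each of these 5 the treated libraries were well clear of the untreated ones. Rars, for arginine, went from 38.34 and 42.54 to 54.82 and 61.33 FPKM (log2 0.62). Cars, for cysteine, went from 20.24 and 17.62 to 26.31 and 26.96 FPKM (log2 0.60), and Tars, for threonine, from 18.22 and 20.45 to 27.14 and 26.86 FPKM (log2 0.58). Nars went from 60.42 and 54.67 to 84.30 and 76.55 FPKM (log2 0.58). These 4 rises were of like size, with SEs of 0.09 to 0.11. Iars, for isoleucine, went from 14.26 and 16.21 to 21.38 and 20.43 FPKM (log2 0.55), and Mars, for methionine, from 15.26 and 14.83 to 20.05 and 20.09 FPKM (log2 0.51). Sars, for serine, showed the smallest called rise, from 37.44 and 35.27 to 49.14 and 43.64 FPKM (log2 0.45, SE 0.09, adjusted p = 0.0151).
Eprs, Hars and Qars were the 3 not called. Eprs, the fused glutamyl and prolyl enzyme, was at 21.72 and 23.93 FPKM untreated and 25.32 and 25.24 FPKM treated (adjusted p = 0.102). Hars, for histidine, was at 23.49 to 27.16 FPKM with overlapping groups (adjusted p = 0.75). In the annotation Hars overlaps Hars2. Qars, for glutamine, was at 38.85 and 41.49 FPKM untreated and 33.27 and 32.44 FPKM treated (log2 -0.19, adjusted p = 0.187), lower in both treated libraries.

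**Figure D2:**
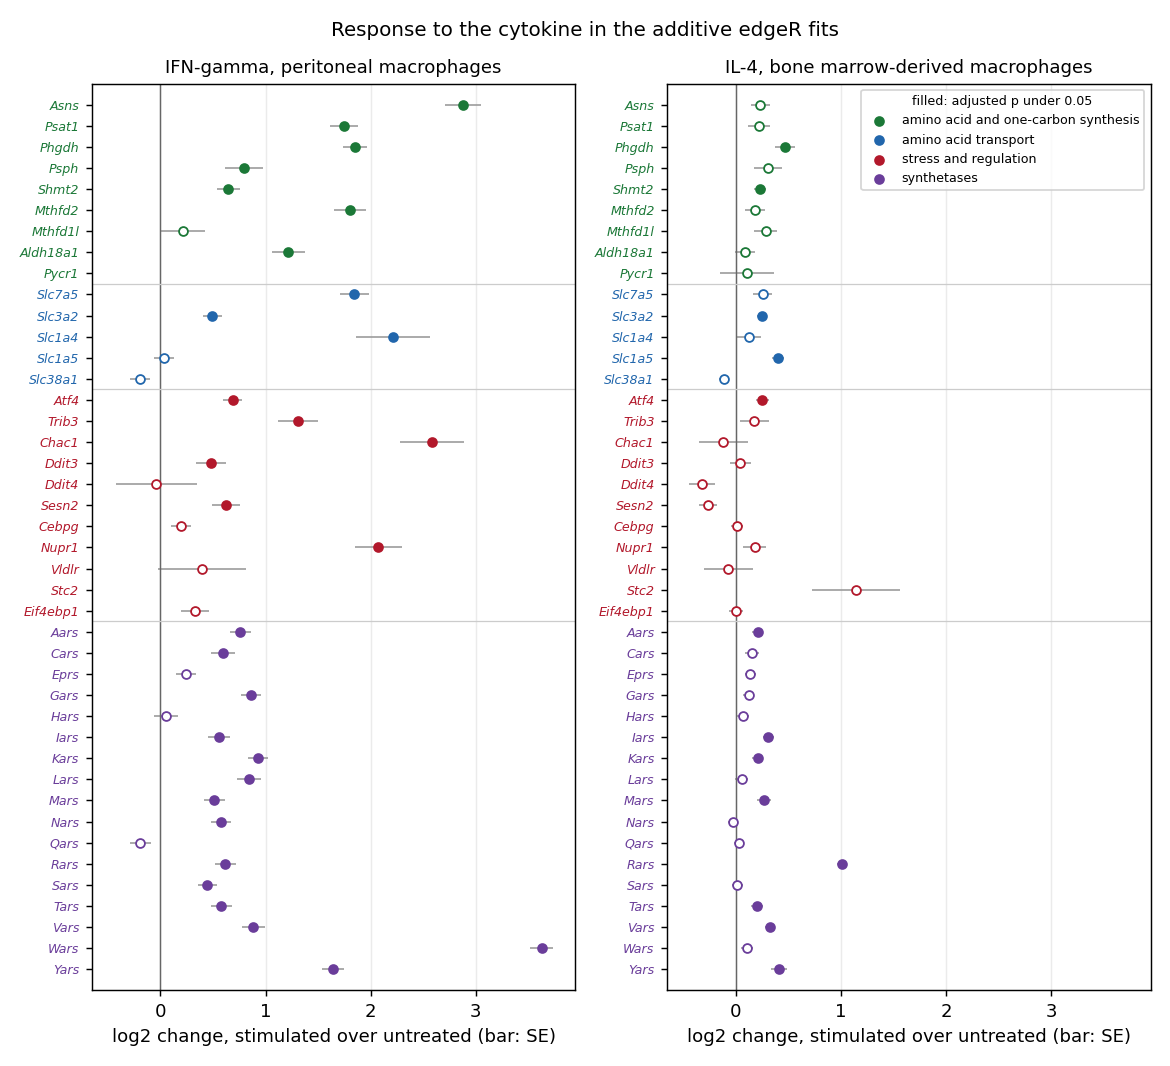
Log2 change with the cytokine for the 42 genes in the additive edgeR fits (horizontal bars: SE; filled: adjusted p under 0.05), for IFN-gamma in peritoneal (left) and IL-4 in bone marrow-derived macrophages (right). With IFN-gamma 30 genes were called, up to 3.63 for Wars, and with IL-4 13 genes were called, up to 1.01 for Rars; Pycr1 and Stc2 have no point on the left because they were not tested there.

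Most mitochondrial synthetases are encoded by nuclear genes separate from the cytosolic ones. The list of 17 such genes held no counterpart of Gars, Kars or Qars. Of the 17 none was called by edgeR with IFN-gamma, while 17.2% of all genes tested rose and 14.9% fell. An unadjusted p under 0.05 in edgeR was reached by 2 of the 17 and by 5234 of all 12052 genes. DESeq2 and limma also called none of the 17. In untreated WT cells the mitochondrial genes had a median of 3.12 FPKM, against 25.06 FPKM for the 17 cytosolic synthetases. Of the mitochondrial genes, 15 were at 1 FPKM or more there. Their summed level was 76.88 (WT) and 79.00 FPKM (KO) untreated and 77.51 and 76.10 FPKM with IFN-gamma. Wars2, the mitochondrial counterpart of Wars, had a log2 change of 0.07, and Yars2 one of 0.22, both uncalled. The difference between the cytosolic and the mitochondrial genes was not tested. Of the 7 remaining cytosolic synthetase and scaffold genes, Farsa, a chain of the phenylalanine enzyme (log2 0.79, adjusted p = 0.00545), and Eef1e1, a scaffold protein of the multisynthetase complex (0.76, adjusted p = 0.0171), rose. Tarsl2, a second cytosolic threonine enzyme, fell from 3.31 and 3.93 to 1.72 and 1.47 FPKM (log2 -1.08, adjusted p = 0.00842). Dars, Farsb, Aimp1 and Aimp2 were not called. These 2 rises and 1 fall stand beside the same 17.2% and 14.9% of all genes. DESeq2 called 1 of the 7 as rising and none as falling, and limma called 2 and 1.

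**Figure D3:**
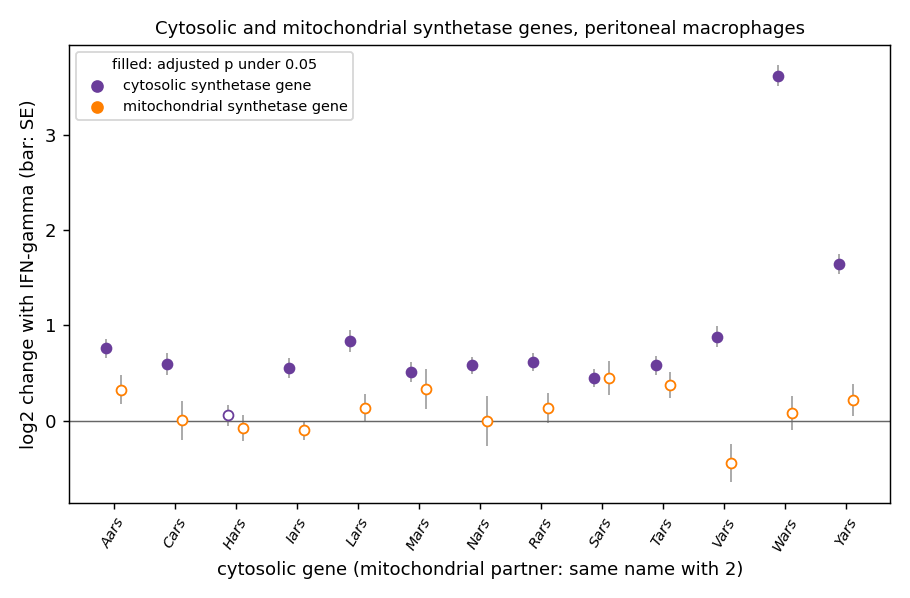
Log2 change with IFN-gamma in peritoneal macrophages (vertical bars: SE; filled: adjusted p under 0.05) for cytosolic synthetase genes that have a mitochondrial partner gene in the list of 17. Among the cytosolic genes drawn only Hars is open, while every mitochondrial point is open and lies between -0.45 and 0.44. Hars overlaps its partner Hars2 in the annotation, and no strand setting is stated.

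Of 16 other integrated stress response genes, which lie upstream of ATF4, beside it or among its targets, 4 rose and 3 fell, with a median log2 change of 0.08. The shares over all genes were 17.2% and 14.9%. Eif2ak2, the kinase PKR that senses double-stranded RNA and is itself an interferon-induced gene, rose from 5.01 and 5.38 to 19.12 (WT) and 52.50 FPKM (KO) (log2 2.72, SE 0.32, adjusted p = 0.00191). Jdp2, a bZIP repressor, rose from 6.27 and 6.65 to 50.27 and 53.17 FPKM (log2 3.10), and Ppp1r15b, a subunit of an eIF2 alpha phosphatase, rose by a log2 change of 0.86. The fourth was Atf5 (0.48, adjusted p = 0.0341). The other eIF2 alpha kinases, Eif2ak1, Eif2ak3 and Eif2ak4, were not called. Atf3, a bZIP factor induced by ATF4 in many cells, fell from 306.42 and 288.31 to 125.06 and 140.29 FPKM (log2 -1.07, adjusted p = 0.00128). Impact, an inhibitor of the kinase GCN2, fell by 0.85 on the log2 scale and Atf6 fell by 0.55.
Of 23 other ATF4-linked genes of metabolism and transport 17 were tested, 6 rose and 2 fell, beside the same 17.2% and 14.9% of all genes. Slc6a9, a glycine transporter, rose by a log2 change of 2.52 (SE 0.19, adjusted p = 0.000378), Slc7a1, a carrier of arginine and lysine, by 1.59 and Got1, the cytosolic aspartate transaminase, by 0.87. Gadd45a, a growth arrest gene, fell from 39.04 and 24.99 to 3.29 and 1.51 FPKM (log2 -3.66, SE 0.17, adjusted p = 6.31e-05). Gdf15, a secreted stress cytokine, fell from 32.03 (WT) and 14.59 (KO) to 21.88 and 10.43 FPKM (log2 -0.43, adjusted p = 0.0456).

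IL-4 raised fewer of the 42 genes in bone marrow-derived macrophages, and by less. All 42 were tested, 13 rose and none fell, while 12.0% of all 12879 genes tested rose and 9.23% fell. The median log2 change was 0.18, against 0.00 over all genes tested. Rises were called for 2 of 9 synthesis genes, 2 of 5 transporters, 1 of 11 stress genes and 8 of 17 synthetases. The count depended on the tool: DESeq2 called 5 of the 13 (Slc3a2, Slc1a5, Iars, Rars and Vars) and limma on log2(FPKM + 1) called 7. Both IL-4 libraries were above both untreated ones for 16 of the 39 genes that averaged 1 FPKM or more in this cell type (background 24.6%).
Rars changed most, from 32.38 (WT) and 31.27 FPKM (KO) untreated to 63.20 and 61.59 FPKM with IL-4 (log2 1.01, SE 0.05, adjusted p = 7.53e-07). No other synthetase changed by more than 0.41. Yars went from 9.36 and 8.27 to 11.50 and 11.29 FPKM (log2 0.41), Vars from 18.39 and 17.17 to 22.45 and 20.93 FPKM (0.33) and Iars from 18.83 and 17.68 to 22.88 and 21.23 FPKM (0.31). Mars went from 13.43 and 11.61 to 14.77 and 14.44 FPKM (0.27), Kars from 34.70 and 35.07 to 38.87 and 39.50 FPKM (0.21), Aars from 32.53 and 28.90 to 35.48 and 33.45 FPKM (0.21) and Tars from 20.08 and 18.92 to 22.18 and 21.38 FPKM (0.20). In all 8 the IL-4 libraries lay above the untreated ones, with the narrowest gap in Aars (32.53 against 33.45 FPKM). Wars was at 20.08 and 21.17 FPKM untreated and 21.09 and 22.31 FPKM with IL-4 and was not called (adjusted p = 0.197).
Among the other genes, Phgdh rose from 8.09 and 6.89 to 10.41 and 9.68 FPKM (log2 0.46, SE 0.09, adjusted p = 0.00652). Slc1a5, not called with IFN-gamma, rose from 14.10 and 14.96 to 18.36 and 18.99 FPKM (log2 0.40, SE 0.06, adjusted p = 0.00106). Slc3a2 went from 142.46 and 130.49 to 159.05 and 156.85 FPKM (log2 0.25). Atf4 went from 76.83 and 69.34 to 80.79 and 87.64 FPKM (log2 0.25, adjusted p = 0.0193), and Shmt2 from 21.64 and 18.75 to 24.61 and 21.55 FPKM (log2 0.23), where the groups overlapped.
Of the pathway genes, IL-4 raised Atf5 (log2 0.71), Atf3 (0.58) and Cebpb (0.52), while Atf6 fell by 0.24. Of the 19 other ATF4-linked genes tested Slc7a1 rose (0.48), and Gpat3 fell by 1.73, Pck2 by 0.40 and Sqstm1 by 0.24. Farsa and Eef1e1 rose by 0.23 and 0.42, while DESeq2 called no gene of their list of 7 and limma called 1. None of the 17 mitochondrial synthetases was called with IL-4 by edgeR, DESeq2 or limma. None had an unadjusted p under 0.05 in edgeR, against 4332 of all 12879 genes.

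A total of 12 genes rose with both cytokines: Phgdh, Shmt2, Slc3a2, Atf4, Aars, Iars, Kars, Mars, Rars, Tars, Vars and Yars. They are 12 of the 30 that rose with IFN-gamma and 12 of the 13 that rose with IL-4. With IFN-gamma 30 of the 40 members tested had risen. The share of all genes that rose with both cytokines was not counted, so no conclusion is drawn from this overlap. The difference between the 2 responses was tested as a contrast in one edgeR fit over all 8 libraries, in which cytokine, cell type and hours of treatment cannot be told apart. The IFN-gamma response was the higher for 24 of the 42 genes and the lower for 2, against 13.8% and 12.3% of 13340 genes. The 24 were among the 30 that rose with IFN-gamma.
The largest differences were in Wars (log2 3.54, SE 0.11, adjusted p = 5.63e-06), Chac1 (2.73), Asns (2.67), Slc1a4 (2.11) and Nupr1 (1.93). In bone marrow-derived macrophages Asns was at 9.89 and 8.24 FPKM in untreated WT and KO cells and at 10.88 and 9.83 FPKM with IL-4. Chac1 was at 1.59 and 0.93 FPKM and then at 1.45 and 0.81 FPKM, and Nupr1 at 21.54 and 18.13 FPKM and then at 25.26 and 18.62 FPKM. None of these genes was called with IL-4. Mthfd2 (9.65 and 8.55 FPKM, then 9.60 and 10.51) and Trib3 (3.26 and 2.86 FPKM, then 3.21 and 3.52) were not called either, and their differences between responses were 1.63 and 1.16. Slc1a4 was at 2.34 and 1.70 FPKM and then at 2.41 and 1.87 FPKM. Aldh18a1 was at 6.18 and 5.38 FPKM and then at 6.92 and 5.12 FPKM, and Psph at 3.77 and 3.52 FPKM and then at 4.32 and 4.43 FPKM. For Psph the difference between responses was not called (adjusted p = 0.109), nor for Ddit3 (20.36 and 22.85 FPKM, then 22.88 and 20.79, adjusted p = 0.118).
Sesn2 moved apart: it was at 8.37 and 8.33 FPKM untreated and at 6.87 and 6.67 FPKM with IL-4 (log2 -0.26, adjusted p = 0.059), and the difference between responses was 0.91 (adjusted p = 0.0032). Of the synthetases that rose with IFN-gamma and were not called with IL-4, Gars was at 28.93 to 31.18 FPKM, Lars at 10.86 to 11.11, Cars at 10.73 to 12.83, Nars at 74.79 to 81.00 and Sars at 29.92 to 30.91 FPKM in the 4 bone marrow-derived libraries. Each of these 5 differed between the responses. The 2 genes with the larger response to IL-4 were Rars (-0.37, SE 0.10, adjusted p = 0.0312) and Slc1a5 (-0.35, SE 0.10, adjusted p = 0.0374). DESeq2 called neither.

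The genotype comparison asks whether macrophages without creatine uptake hold these genes at another level. In peritoneal macrophages edgeR called no difference between KO and WT in any of the 40 genes tested. Over all genes 0.0249% were higher and 0.00830% lower. An unadjusted p under 0.05 was reached by 5 of the 40 genes and by 1680 of all 12052, so that the 5 are not more than the background. Their estimates were lower in KO: Nupr1 (log2 -0.56), Psat1 (-0.47), Mthfd2 (-0.46), Phgdh (-0.34) and Eif4ebp1 (-0.34). DESeq2 and limma called none. The estimate was below 0 for all 8 synthesis genes tested, while it was above 0 for 51.3% of all genes tested. In the untreated and in the IFN-gamma pair alike, KO was below WT for 6 of the 8. For the 17 synthetases the estimate was between -0.15 and 0.15.
In bone marrow-derived macrophages 3 genes fell in KO and none rose, while 3.68% of all genes tested fell and 1.51% rose. Psat1 was at 11.22 FPKM in untreated and 11.11 FPKM in IL-4-treated WT cells and at 7.06 and 9.29 FPKM in KO cells (log2 -0.45, SE 0.11, adjusted p = 0.0397). Ddit4 was at 6.01 and 4.53 FPKM in WT cells against 3.83 and 3.12 FPKM in KO (log2 -0.59, SE 0.12, adjusted p = 0.0246). Slc7a5 was at 5.27 and 6.26 FPKM in WT cells against 4.16 and 4.72 FPKM in KO (log2 -0.37, SE 0.09, adjusted p = 0.0461). For each of the 3, both KO libraries were below both WT libraries, a pattern shown by 11 of the 39 genes compared (background 13.8%). None of the 3 was called by DESeq2 (adjusted p = 0.643 for Psat1 and 1 for the others) or by limma on log2(FPKM + 1) (0.113, 0.0516 and 0.124 for Psat1, Ddit4 and Slc7a5). With relative log expression scaling the adjusted p of Slc7a5 was 0.0537. With no filter on low counts edgeR called 8 of the 42 genes lower, and 726 of 17395 genes in all.
Markers of fibroblasts were lower in the same libraries. The 6 fibroblast and mesothelial markers summed to 374.18 (untreated) and 352.11 FPKM (IL-4) in WT and to 199.31 and 171.13 FPKM in KO cells. Col1a1, type I collagen, was the highest of them, at 208.73 and 198.89 FPKM against 109.59 and 93.66 FPKM, while the mesothelial genes Msln and Upk3b were at 0 in all 4. The part of this difference in the 3 results was not tested.
Of the 16 integrated stress response genes tested, Atf5 (log2 -0.32, adjusted p = 0.00884) also fell in KO bone marrow-derived macrophages. Of the 19 other ATF4-linked genes tested, Slc6a9 (log2 -0.93, adjusted p = 0.00572) and Aldh1l2 (-0.82, adjusted p = 0.00418) fell. Aldh1l2 encodes a mitochondrial enzyme of one-carbon metabolism. None rose in either list, while 3.68% of all genes tested fell and 1.51% rose. DESeq2 called no gene of these lists, and limma on log2(FPKM + 1) called 1 lower in each. In peritoneal macrophages Slc6a9 was at 0.65 (untreated) and 3.87 FPKM (IFN-gamma) in WT and at 0.95 and 4.65 FPKM in KO cells, which is the other direction, without a call. Whether the KO effect differed between the cell types was tested by a contrast chosen after seeing the data. EdgeR called none of the 42 genes, with 2 at an unadjusted p under 0.05, against 0.0900% and 0.0375% of all genes called higher and lower. DESeq2 and limma called none.

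Pair by pair, KO and WT were compared on the scale of log2(FPKM + 1). Of the 37 genes compared in peritoneal and the 39 in bone marrow-derived macrophages, none reached a 2-fold difference in any of the 4 pairs. Of all genes compared, 0.778%, 2.45%, 0.403% and 0.642% did so in the untreated peritoneal, IFN-gamma, untreated bone marrow-derived and IL-4 pairs. With shares this low, finding none among 37 or 39 genes does not set the members apart from the background. Of 15 other ATF4-linked genes compared, 1 was at least 2-fold lower in KO in the untreated peritoneal pair and 1 in the IFN-gamma pair. Of 16 integrated stress response genes, 1 was at least 2-fold higher in KO in the IFN-gamma pair. No gene of either list reached 2-fold in the bone marrow-derived pairs. The limma test over the 4 pairs called none of the 37 genes measured in both cell types, with 4 at an unadjusted p under 0.05 (845 of all 10073 genes), and called 0.00993% of all genes lower and 0% higher. KO was below WT in 4 of 4 pairs for Psat1, Phgdh, Slc3a2, Sesn2 and Nupr1 (background 8.13%) and above WT in 4 of 4 for the glutamine transporters Slc1a5 and Slc38a1 (background 10.3%). The 5 lower genes comprise 2 of the serine pathway, and no synthetase kept 1 direction in all pairs.
Psat1 was lowest relative to WT in the IFN-gamma pair (ratio 0.631, exact 95% counting interval 0.574 to 0.694) and the untreated bone marrow-derived pair (0.631, 0.547 to 0.726). In the other pairs its ratio was 0.856 and 0.838. Among genes averaging 1 FPKM or more, Nupr1 had the lowest ratio, 0.554 (0.450 to 0.679), in the IFN-gamma pair, against 0.988 (0.657 to 1.49) in the untreated peritoneal pair. Trib3 and Eif4ebp1 likewise stood at ratios of 0.670 and 0.673 with IFN-gamma and at 1.04 and 0.944 without. Mthfd2 went the other way, with a ratio of 0.608 (0.502 to 0.733) in untreated and 0.840 (0.759 to 0.929) in IFN-gamma-treated cells. These intervals cover counting error only and not the variation between cultures. The KO response to IFN-gamma minus the WT response was -0.81 for Nupr1, -0.56 for Trib3, -0.48 for Eif4ebp1, -0.47 for Aldh18a1, -0.44 for Psat1 and -0.42 for Mthfd1l, and 0.44 for Asns and 0.41 for Mthfd2, on the scale of log2(FPKM + 1). No test of this difference exists with 1 library per group, and the additive fits count it as error. Over the 37 genes compared its median was -0.08, against -0.06 over all genes compared.

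**Figure D4:**
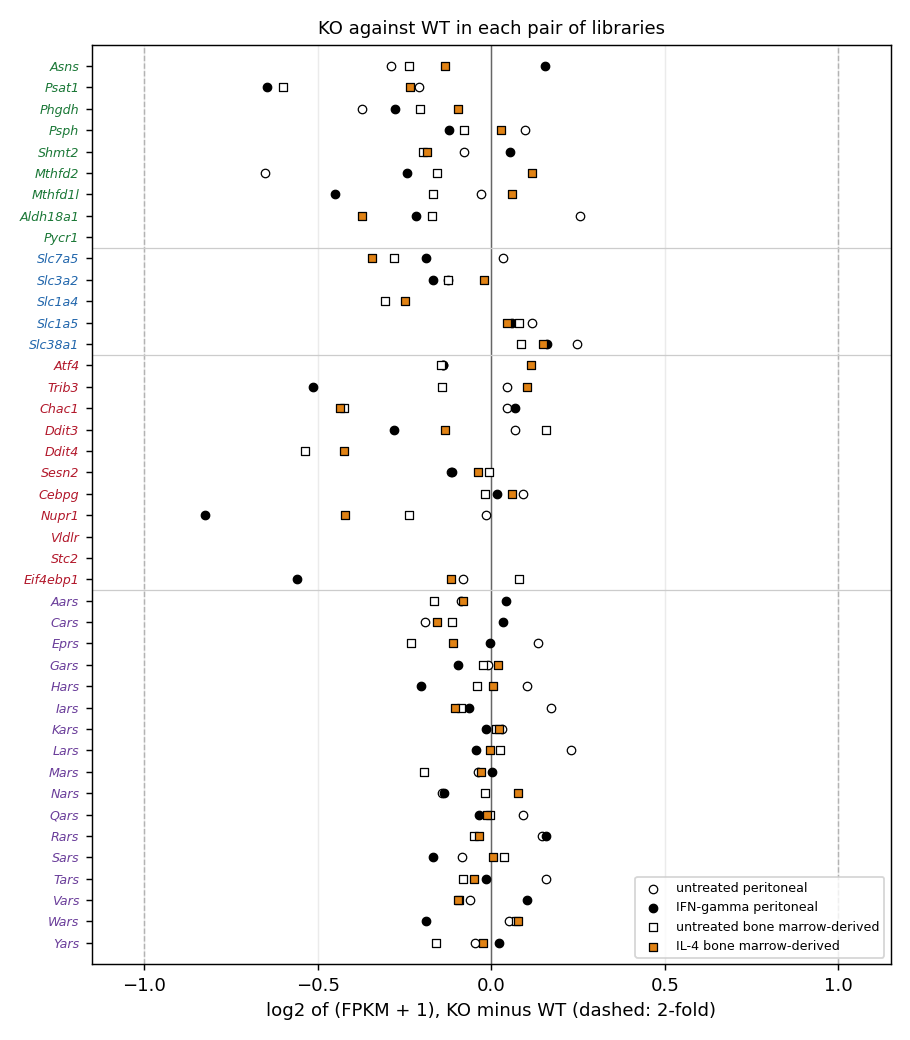
Log2 ratio of FPKM + 1, KO over WT, for each gene in each of the 4 pairs of libraries (circles: peritoneal; squares: bone marrow-derived; filled: with cytokine; dashed lines: 2-fold). All points lie within the dashed lines, the lowest being Nupr1 with IFN-gamma at -0.82, and the 17 synthetases lie between -0.23 and 0.23; Pycr1, Vldlr and Stc2, and the peritoneal pairs of Slc1a4 and Ddit4, were under a mean of 1 FPKM and have no point.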

How the data were processed

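RNA was measured in 8 libraries, 1 per group. Per the submitters' processing notes, the tools were Bowtie2 2.2.5 and RSEM on mm10, with no RSEM version or strand setting in the sources used here. The authors deposited an expected count and an FPKM value per gene and library, and 70.1% to 77.8% of the expected counts were whole. A gene not listed in a library was set to 0. Names and positions came from RefSeq on GRCm38.p6 for 18076 of 18125 identifiers.

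Expected counts were rounded and fitted with edgeR 4.0.16 in R 4.3.3 (quasi-likelihood test, TMM scaling, filterByExpr), with additive genotype and stimulus terms and 1 residual degree of freedom per cell type. A fit over all 8 libraries, with 2 residual degrees of freedom, tested differences between cell types. P-values were adjusted by Benjamini-Hochberg over all genes tested and called under 0.05. SEs are the absolute log2 change over the square root of the F statistic. The 4 KO minus WT pairs were tested with limma 3.58.1 on log2(FPKM + 1), over genes averaging 1 FPKM or more. Library-pair ratios used the same pseudocount of 1, which understates changes of low genes. Alternatives were DESeq2 1.42.0, limma, other scaling, filters and pseudocounts, and a narrower promoter window. The scripts were tested on simulated data. Summaries, intervals and plots were made in Python 3.11.15 (matplotlib 3.10.9, pandas 2.3.3, scipy 1.17.1).

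The rule that names the members uses no expression value, but the members, the 4 pathway lists and the marker lists were chosen with earlier results of these data known. Results on other promoter motifs are not reported here. By rule, any member could be named, with its FPKM in every library where it was called, and from each pathway list the called genes with the 3 largest changes per direction and cell type, or all genes of a list of up to 12. Atf5 with IFN-gamma, Wars2, Yars2 and the uncalled eIF2 alpha kinases fall outside it and were named after their values were seen. Counting intervals are too narrow where PCR copied the same molecule.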

Additional observations from a re-analysis of the deposited data

How the results depend on the processing

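No analysis paired by replicate was possible because every group holds 1 replicate, so that no replicate block could be fitted. The 4 KO and WT pairs tested are pairs of groups. Leaving out 1 library of an additive fit leaves 3 libraries for 3 coefficients. Of the 72 called values of single members, none changed direction. They stayed called in 48 cases with DESeq2, 58 with limma on log2(FPKM + 1), and 71 each with relative log expression (RLE) scaling, no low-count filter and protein-coding genes only.

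With DESeq2, 1272 genes rose and 877 fell with IFN-gamma (edgeR: 2077 and 1796), and 674 rose and 417 fell with IL-4 (1542 and 1189). Members that rose with IL-4 numbered 5 with DESeq2 and 7 with limma (13), and 1 member, Sesn2, fell with no filter and with protein-coding genes only. KO against WT in peritoneal macrophages gave 17 genes higher and 19 lower with DESeq2, 0 and 0 with limma, 12 and 5 with RLE, 26 and 26 with no filter, and 1 higher with protein-coding genes only (edgeR: 3 and 1). In bone marrow-derived macrophages it gave 41 and 113 with DESeq2, 62 and 209 with limma, and 527 and 726 with no filter (195 and 474). Members lower in KO there numbered 0 with DESeq2, 0 with limma and 8 with no filter (3). Members with the smaller response to IFN-gamma than to IL-4 numbered 0 with DESeq2 and 1 with no filter (2). Over the 4 pairs, 1 to 2 genes fell when each pair was left out in turn. With a pseudocount of 5, 7 members were at least 2-fold higher with IFN-gamma in WT (11 with 1). The causes were not tested. The median ratio over all genes was -0.11 for IFN-gamma in KO and -0.05 in WT cells. Depth limits Slc1a4, Chac1 and Ddit4 in peritoneal macrophages.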
